A study of Homo sapiens with 9 samples.

Results

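The cytosolic ribosomal protein genes were taken by name from RNA-seq of U937 cells, a human monocytic leukemia line. A gene was a member when its symbol was RPL or RPS followed by a number, with or without an A, X or L and a final digit, or was RPLP0, RPLP1, RPLP2 or RPSA. This gave 84 of the 60623 genes measured, 52 of the large and 32 of the small ribosomal subunit. Their RNA was compared in 3 stable lines, each 1 clone selected after retroviral transduction: U937-AE with doxycycline-inducible AML1-ETO (clone #4), U937-EG with inducible ETO2-GLIS2 (clone #14), and U937-CTR with the empty vector. GEO lists the genotype of U937-CTR as WT. Every line was sampled at 0, 12 and 48 h of doxycycline at 5 μg/ml, so U937-CTR received the drug too, and the 0 h libraries were uninduced. There was 1 library for each line and time, 9 in all, so differences within a line have no replicate check, and intervals of single genes cover counting error only.

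Ribosomal proteins and ribosomal RNA together build the ribosome. Cells make the proteins of both subunits in matched amounts, and proteins made in excess are degraded. In vertebrates most of their mRNAs begin with a C followed by an unbroken run of C and T, the 5′ terminal oligopyrimidine (TOP) tract, through which the mTOR pathway and the RNA-binding protein LARP1 control their translation and stability. A few members have a paralog whose symbol ends in L or L1, and some of these, such as RPL10L, are expressed in particular tissues.

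The tract can be read in the RefSeq start sites of GRCh38.p14, from 10 bases before the start to 20 bases from it, shown here because it is the sequence most members share. The first 6 windows are those of members with large rises (RPLP1, RPS12, RPS27) and of members that changed little (RPL7A, RPLP0, RPL3), and the last 5 set paralogs beside the members they are named after. Capitals mark the C and T run from the first transcribed base.
RPLP1 (chr15:69452808-69452837, plus strand): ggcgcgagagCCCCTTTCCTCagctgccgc
RPS12 (chr6:132814559-132814588, plus strand): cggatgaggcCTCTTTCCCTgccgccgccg
RPS27 (chr1:153990752-153990781, plus strand): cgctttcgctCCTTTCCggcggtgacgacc
RPL7A (chr9:133348208-133348237, plus strand): attccctttcCTTTCTCTCTCCTCCCgccg
RPLP0 (chr12:120201092-120201121, minus strand): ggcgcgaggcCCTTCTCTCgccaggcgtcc
RPL3 (chr22:39319604-39319633, minus strand): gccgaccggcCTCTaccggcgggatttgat
RPS27L (chr15:63157458-63157487, minus strand): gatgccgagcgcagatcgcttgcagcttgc
RPL26 (chr17:8383174-8383203, minus strand): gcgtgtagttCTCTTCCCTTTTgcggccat
RPL26L1 (chr5:172958719-172958748, plus strand): tccaggggtcggcgaacgaaacgcggagct
RPL22 (chr1:6199576-6199605, minus strand): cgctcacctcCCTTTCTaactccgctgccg
RPL22L1 (chr3:170870176-170870205, minus strand): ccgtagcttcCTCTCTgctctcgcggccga

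RefSeq held a start window for 67 of the 84 members. A C at the first base followed by at least 4 more C or T bases was present in 43 (64.2%) of them, against 4.04% of all 27305 promoters. Among the paralogs ending in L or L1, 1 of 5 had this start, and that was RPL22L1. RPL3 began with a C but had a run of only 4 bases at this start. The ETS-family core CCGGAAG, searched on both strands of the 250 bases before the start, was found in 20 (29.9%) of the 67 members and in 8.82% of all promoters. The letters TATAAA in the 50 bases before the start, read on the coding strand, were found in 4 members (5.97%), against 2.92% of all promoters. These matches describe the letters alone.

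Libraries held 15136398 to 18443639 reads on genes in total, and a gene's FPKM is its read number scaled by that total and by its exon length. A gene of each fusion rose in the line labeled with it. RUNX1T1, which encodes ETO, had 0.512, 22.2 and 28.7 FPKM in U937-AE at 0, 12 and 48 h, and GLIS2 had 2.39, 6.79 and 8.85 FPKM in U937-EG. GLIS2 was also present in the other lines, with 4.76, 3.64 and 3.72 FPKM in U937-CTR and 5.6, 2.93 and 2.47 FPKM in U937-AE. At 0 h it was thus lowest in U937-EG, and at 12 and 48 h highest there. Of 10 monocytic markers, 6 were at 1 FPKM or more in every library, and CD68 (at most 0.0283 FPKM) and MPO (at most 0.780 FPKM) were under 1 FPKM in all. The T cell, erythroid and megakaryocyte markers, 8 in all, stayed under 1 FPKM in every library.

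The members were among the most abundant transcripts. Over the 9 libraries, 56 members had a mean of at least 100 FPKM, 70 had at least 10 FPKM, and 14 had less. The highest means were those of RPS18, RPS2 and RPL41. RPS18, a protein of the small subunit head (ENSG00000231500, chromosome 6, 33272075 to 33276511, all positions GRCh38.p14), had 805, 809 and 1446 FPKM in U937-CTR, 957, 1358 and 1704 FPKM in U937-AE and 1018, 884 and 1132 FPKM in U937-EG, each at 0, 12 and 48 h in that order. RPS2, which lines the entry path of the mRNA (ENSG00000140988, chromosome 16, 1962058 to 1964826), had 771, 888 and 987 FPKM in U937-CTR, 903, 1086 and 1038 FPKM in U937-AE and 977, 899.7 and 844 FPKM in U937-EG. RPL41, the smallest of the ribosomal proteins (ENSG00000229117, chromosome 12, 56116633 to 56117967), had 574, 577 and 954 FPKM in U937-CTR, 777, 1127 and 1118 FPKM in U937-AE and 883, 842 and 943 FPKM in U937-EG. Each of the 3 was lowest in U937-CTR at 0 h and highest in U937-AE, at 48 h for RPS18 and at 12 h for RPS2 and RPL41.

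Levels between members can be compared only per length, and the exon length behind the FPKM counts every annotated exon base, which for members is 1.61 (RPS12) to 58.6 (RPS29) times the coding length. Given instead as RPKM computed from the recovered reads over the coding length alone, the 70 members of at least 10 FPKM had a median of 1347.5. They ranged from 94.1 (RPL23A) to 12800.0 (RPL41). The reads lie on all exon bases, so this measure can overstate members of short coding length. For RPL41 the exon bases were 14.8 times the 75 coding bases, and RPL23A had 91 pseudogenes. The range thus holds these limits as well as transcript levels. RPL23A and RPS29 were singled out here after their values were seen. Of the 14 members under 10 FPKM, 6 are paralogs ending in L or L1. The other 8 are genes of the standard ribosome, among them RPL17, RPS10, RPL36A, RPL26 and RPS29, also named after their values were seen, with mean levels of 1.35 (RPL17) to 4.82 (RPS29) FPKM. Reads that align to several places or lie on more than 1 gene are normally dropped by the counting program. Annotated genes on the same strand covered 32.9% of the exon bases of RPL17 and 31.5% of those of RPS10. The readthrough genes RPL17-C18orf32 and RPS10-NUDT3 were themselves listed at 0 FPKM in all 9 libraries. Pseudogenes of RPS10 summed to a mean of 9.90 FPKM, against 1.35 FPKM for RPS10 itself. The levels of these 8 genes are therefore uncertain. This limit is not confined to them. Pseudogenes of RPS2 summed to a mean of 464.7 FPKM against 932.7 for RPS2, and those of RPL7 to 426.5 against 573.8. For RPS7, chosen after its values were seen, they summed to 244.9 FPKM against 136.6. Those of RPS18 summed to only 1.84 FPKM. The 1143 pseudogenes of members in the table held between 0.799% and 1.19% of all FPKM.

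The members' share of all FPKM rose with time in U937-CTR and U937-AE. It was 5.70%, 6.35% and 8.46% at 0, 12 and 48 h in U937-CTR, 6.59%, 8.59% and 10.2% in U937-AE, and 7.19%, 6.80% and 8.06% in U937-EG. The 48 h share was thus 1.48, 1.55 and 1.12 times that at 0 h. Over the 3 lines the share at 48 h exceeded that at 0 h by 2.41 percentage points ± 1.39 (SD, n = 3 lines), higher in 3 of 3 lines, with p = 0.25 in the two-sided exact permutation test within lines, the smallest p this design allows. At 12 h the difference was 0.751 points ± 1.19 (SD, n = 3 lines), higher in 2 of 3 lines, with p = 0.5 in the same exact permutation test.

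Transcripts of the mitochondrial genome lost share over the same hours. They took 23.5%, 16.3% and 15.5% of all FPKM in U937-CTR, 20.9%, 13.1% and 8.82% in U937-AE and 22.8%, 16.6% and 12.1% in U937-EG. With these transcripts left out of the total, the members' share was 7.46%, 7.58% and 10.0% in U937-CTR and 8.33%, 9.88% and 11.2% in U937-AE. In U937-EG it was 9.30%, 8.16% and 9.17%, so the rise at 48 h in that line was present only in the share that includes the mitochondrial genome. The exact permutation p at 48 h was then 0.5 for a mean difference of 1.76 points ± 1.64 (SD, n = 3 lines), higher in 2 of 3 lines. As a share of recovered reads, which carry no length term, the members had 4.37%, 4.60% and 6.12% in U937-CTR, 5.06%, 6.30% and 6.84% in U937-AE and 5.71%, 5.08% and 5.56% in U937-EG.

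**Figure D1:**
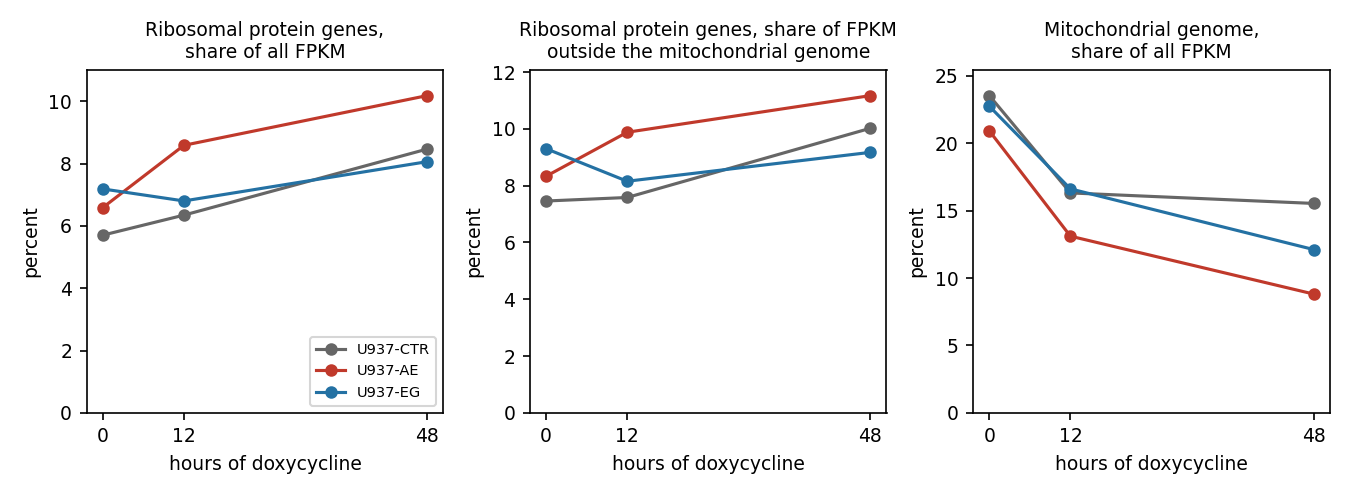
Share of the ribosomal protein genes in all FPKM (left) and in the FPKM outside the mitochondrial genome (middle), and share of the mitochondrial genome (right), in percent against hours of doxycycline, 1 point per library, lines joining the libraries of 1 cell line. U937-AE ends highest at 10.2% and U937-CTR starts lowest at 5.70%, while the mitochondrial share falls in all 3 lines.

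Both subunits took part. The small subunit members held 2.35% of all FPKM at 0 h and 3.73% at 48 h in U937-CTR, 2.74% and 4.48% in U937-AE, and 3.01% and 3.46% in U937-EG. The ratio of summed small to summed large subunit FPKM was 0.702 at 0 h and 0.787 at 48 h in U937-CTR, 0.711 and 0.785 in U937-AE, and 0.720 and 0.751 in U937-EG. It was higher at 48 h in each line. Of the members with a mean of at least 1 FPKM, 80 of 81 held a larger share at 48 h in U937-CTR, where 65.6% of all genes did, 81 of 82 in U937-AE, where 67.5% did, and 73 of 81 in U937-EG, where 78.6% did. The 10 members that gained most, picked by that gain, made up 45.1% of the rise in U937-CTR and 46.2% in U937-AE. At 0 h the 10 most abundant members already held 38.4% and 39.0% of the members' FPKM in these lines. RPS18, the member with the highest mean FPKM, gained most in all 3 lines, with 0.2505, 0.341 and 0.0953 points.

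In U937-CTR the members changed little at 12 h and rose at 48 h. At 12 h, 60 of the 81 members with a mean of at least 1 FPKM in the comparison were higher than at 0 h, a share of members near the 68.0% of all 11694 genes tested that were higher. The median log2 change of FPKM was 0.08 for the members and 0.14 for all genes. After rescaling by the median ratio of the libraries, which lowers every change in this comparison by 0.13, the median of the members was -0.055. At 48 h, 80 of 81 members were higher, against 63.2% of 11624 genes, and RPL3 was the member that was lower. The median log2 change was 0.62 for the members and 0.16 for all genes, and 0.49 for the members after rescaling. Higher at both times were 60 of 81 members, against 53.9% of all genes. Most of this change fell after 12 h: 79 of 81 members were higher at 48 h than at 12 h, against 49.6% of 11974 genes, with a median log2 change of 0.48 for the members and of less than 0.01 in size for all genes.

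In U937-AE the members had already risen at 12 h. At that time 79 of 82 members were higher than at 0 h, against 66.8% of 11775 genes, and the 3 that were lower were RPLP0, RPL4 and RPL3. The median log2 change was 0.42 for the members and 0.18 for all genes, and 0.28 for the members after rescaling. At 48 h, 81 of 82 members were higher, against 60.9% of 12030 genes, with a median log2 change of 0.52 against 0.22 for all genes, and 0.37 after rescaling. The 1 lower member was RPL39L. Higher at both times were 78 of 82 members (95.1%), against 48.7% of all genes. From 12 h to 48 h the members rose little further, with a median log2 change of 0.10 and 56 of 82 higher, against 51.1% of 12372 genes.

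In U937-EG the members were lower at 12 h and near their starting level at 48 h. At 12 h, 69 of 81 members were lower than at 0 h, against 32.6% of 11311 genes, with a median log2 change of -0.16 for the members and 0.11 for all genes, and -0.26 for the members after rescaling. Lower at both times were 40 of 81 members, against 21.1% of all genes. At 48 h, 38 members were higher and 43 lower, where 63.8% of 11696 genes were higher. The median log2 change was then -0.03 for the members and 0.16 for all genes, and -0.16 for the members after rescaling. Between 12 h and 48 h 66 of 81 members rose in FPKM, against 56.8% of 11876 genes, with a median log2 change of 0.15. At each time the members' median thus lay above that of all genes in U937-AE, by 0.25 at 12 h and 0.30 at 48 h, and below it in U937-EG, by 0.27 and 0.19. In U937-CTR it lay 0.06 below that of all genes at 12 h and 0.46 above it at 48 h. Higher in U937-AE and lower in U937-EG at both times were 37 of the 81 members tested in both lines, against 5.80% of 10705 genes.

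The rises were common but seldom large. At 48 h in U937-CTR, 11 members were more than 2-fold higher, where 8.00% of all genes were, 41 more than 1.5-fold, where 20.4% were, and 67 more than 25% higher, where 36.5% were. At 12 h in that line these counts were 1, 3 and 7, where 5.64%, 14.4% and 29.9% of all genes were. In U937-AE at 12 h, 3 members were more than 2-fold higher (6.57% of all genes), 23 more than 1.5-fold (18.0%) and 56 more than 25% (36.2%). At 48 h in U937-AE they were 4, 34 and 57, where 17.3%, 31.7% and 44.6% of all genes were. In U937-EG few members passed any of these limits: 2, 2 and 5 at 12 h, where 3.03%, 8.92% and 22.3% of all genes did, and 2, 3 and 7 at 48 h, where 10.8%, 22.4% and 37.0% did. Without rescaling, the members thus exceeded the background at 25% and 1.5-fold in U937-CTR at 48 h and in U937-AE. At 2-fold they exceeded it only in U937-CTR at 48 h. After rescaling by the median ratio 5 members were more than 2-fold higher there, and all genes were not counted.

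The 3 lines differed before induction. At 0 h U937-AE exceeded U937-CTR in 73 of 80 members, against 51.1% of 11319 genes, with a median log2 difference of 0.25, where all genes had 0.01. U937-EG exceeded U937-CTR in 76 of 80 members, against 48.6% of 11176 genes, with a median of 0.42, where all genes had -0.02. At 48 h the difference from U937-CTR was a median of 0.15 in U937-AE, with 66 of 82 members higher against 54.6% of 12261 genes. In U937-EG it was -0.12, with 64 of 82 members lower against 46.8% of 12035 genes. At 12 h, when U937-CTR had hardly moved, all 82 members tested were higher in U937-AE than in U937-CTR, against 53.3% of 12089 genes, with a median of 0.54. Of the 70 members with at least 10 FPKM, 49 had their lowest of the 9 values in U937-CTR at 0 h, and 42 had their highest in U937-AE at 48 h. These places were not counted over all genes, so they cannot be called particular to the members. The U937-CTR library at 0 h also had the lowest share of the 9.

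Single members are given next by their place in the ribosome, with FPKM at 0, 12 and 48 h in that order. RPLP0, RPLP1 and RPLP2 form the stalk of the large subunit, which recruits the elongation factors. RPLP1 (ENSG00000137818, chromosome 15, 69452818 to 69456205) had 149, 193 and 457 FPKM in U937-CTR, 199.9, 384 and 454 FPKM in U937-AE and 380.5, 303 and 407 FPKM in U937-EG. RPLP2 (ENSG00000177600, chromosome 11, 809967 to 812876) had 194, 199 and 406 FPKM in U937-CTR, 240.0, 364 and 390.0 FPKM in U937-AE and 319, 253 and 317 FPKM in U937-EG. RPLP0 (ENSG00000089157, chromosome 12, 120196699 to 120201111), the scaffold on which the other two sit, had 528, 473 and 571 FPKM in U937-CTR, 499.5, 476 and 513 FPKM in U937-AE and 452, 386 and 434 FPKM in U937-EG. In U937-CTR and U937-AE both 48 h values of RPLP1 and of RPLP2 lay above all 0 h values of these lines, and RPLP1 was about as high in U937-EG before induction as in U937-AE at 12 h. The log2 change of RPLP1 at 48 h was 1.62 (95% interval 1.58 to 1.65) in U937-CTR, 1.18 (95% interval 1.15 to 1.22) in U937-AE and 0.10 (95% interval 0.07 to 0.13) in U937-EG. That of RPLP0 was 0.11 (95% interval 0.09 to 0.13), 0.04 (95% interval 0.02 to 0.06) and -0.06 (95% interval -0.08 to -0.04). The proteins of 1 structure thus differed widely in the change of their mRNA, and RPLP0, long used as a reference gene in qPCR, was among the members that changed least.

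On the small subunit, RPS12 and RPS27 rose most in the fit over the 3 lines described further on. RPS12, a protein of the beak of the subunit (ENSG00000112306, chromosome 6, 132814569 to 132817564), had 399, 474 and 877 FPKM in U937-CTR, 544, 852 and 1258 FPKM in U937-AE and 786, 617 and 790.0 FPKM in U937-EG. It was highest in U937-AE at 48 h, where the log2 change was 1.21 (95% interval 1.16 to 1.255). RPS27 (ENSG00000177954, chromosome 1, 153990762 to 153992155), a zinc finger protein, had 270.4, 247 and 496 FPKM in U937-CTR, 323, 447 and 574 FPKM in U937-AE and 298, 256 and 402 FPKM in U937-EG. It was lowest at 12 h in U937-CTR and U937-EG and highest at 48 h in all 3, and its log2 change at 48 h in U937-EG, 0.43 (95% interval 0.38 to 0.49), was the largest there among members of at least 10 FPKM. RPS27A, made as a fusion with ubiquitin (ENSG00000143947, chromosome 2, 55231903 to 55235853), had 88.7, 114 and 197 FPKM in U937-CTR, 116, 200.4 and 205 FPKM in U937-AE and 198, 181 and 201 FPKM in U937-EG. All 3 lines were between 197 and 205 FPKM at 48 h, while at 0 h the highest line had more than 2 times the level of the lowest.

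RPS14 and RPS19 are known for blood disease: loss of a copy of RPS14 contributes to the anemia of the 5q- syndrome, and RPS19 is the gene most often mutated in Diamond-Blackfan anemia. RPS14 (ENSG00000164587, chromosome 5, 150442635 to 150449739) had 94.2, 99.7 and 132 FPKM in U937-CTR, 114, 142 and 142 FPKM in U937-AE and 143, 122 and 128 FPKM in U937-EG. RPS19 (ENSG00000105372, chromosome 19, 41860255 to 41872925) had 140.3, 157 and 261 FPKM in U937-CTR, 168, 228 and 278 FPKM in U937-AE and 200.2, 182 and 234 FPKM in U937-EG. Both were higher at 48 h than at 0 h in U937-CTR and U937-AE, and at 48 h in U937-EG RPS14 had a log2 change of -0.16 (95% interval -0.20 to -0.12) and RPS19 one of 0.22 (95% interval 0.19 to 0.26). RPS6, the substrate of the S6 kinases (ENSG00000137154, chromosome 9, 19375715 to 19380236), had 475, 493 and 650.0 FPKM in U937-CTR, 513, 570.0 and 634 FPKM in U937-AE and 513, 458 and 557 FPKM in U937-EG. RPS3, which lines the mRNA entry and also acts in DNA repair (ENSG00000149273, chromosome 11, 75399518 to 75422302), had 189, 202 and 282 FPKM in U937-CTR, 230.3, 299.5 and 313 FPKM in U937-AE and 294, 249 and 269 FPKM in U937-EG. RPSA, also known as a laminin receptor (ENSG00000168028, chromosome 3, 39406720 to 39412542), had 239, 280.2 and 329.5 FPKM in U937-CTR, 258, 326 and 289 FPKM in U937-AE and 303, 283 and 268 FPKM in U937-EG. Within U937-CTR all 3 were highest at 48 h, and in U937-AE RPSA was highest at 12 h.

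On the large subunit, RPL5 and RPL11 form the particle with 5S rRNA that binds MDM2 and stabilizes p53. RPL5 (ENSG00000122406, chromosome 1, 92831986 to 92841924) had 169, 176 and 204 FPKM in U937-CTR, 174, 218 and 219 FPKM in U937-AE and 233, 199 and 190.0 FPKM in U937-EG. RPL11 (ENSG00000142676, chromosome 1, 23691779 to 23696835) had 273, 320.1 and 360.2 FPKM in U937-CTR, 352, 446 and 416 FPKM in U937-AE and 412, 360.3 and 402 FPKM in U937-EG. In U937-CTR both rose less than the median member at 48 h, with log2 changes of 0.28 (95% interval 0.24 to 0.31) and 0.40 (95% interval 0.36 to 0.43). In U937-EG RPL5 had the largest fall at 48 h among members of at least 10 FPKM, -0.30 (95% interval -0.33 to -0.26). RPL13A, a subunit of the complex that silences inflammatory mRNAs in monocytes (ENSG00000142541, chromosome 19, 49487608 to 49492308), had 289, 267 and 352 FPKM in U937-CTR, 338, 424 and 549.7 FPKM in U937-AE and 479.8, 369 and 430.4 FPKM in U937-EG. RPL10, recurrently mutated in T cell leukemia (ENSG00000147403, chromosome X, 154398065 to 154402339), had 43.5, 43.6 and 69.5 FPKM in U937-CTR, 47.1, 59.4 and 72.6 FPKM in U937-AE and 101, 83.5 and 94.7 FPKM in U937-EG. RPL38, needed for the translation of some homeobox mRNAs (ENSG00000172809, chromosome 17, 74203678 to 74210655), had 35.6, 34.7 and 61.7 FPKM in U937-CTR, 46.8, 66.0 and 71.6 FPKM in U937-AE and 38.0, 32.5 and 40.4 FPKM in U937-EG. RPL10 set U937-EG apart at every time, with 83.5 to 101 FPKM where the other 2 lines had 43.5 to 72.6 FPKM, and RPL38 was in U937-EG never above 40.4 FPKM. Genes on the opposite strand covered 50.45% of the exon bases of RPL10, and 40.8% of those of RPL30, named below. The part of this overlap in their levels was not tested.

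Members of long coding sequence changed least in U937-CTR at 48 h. RPL3, the largest fall in U937-CTR, reaches towards the peptidyl transferase center (ENSG00000100316, chromosome 22, 39312882 to 39319623), and had 463, 423 and 424 FPKM in U937-CTR, 514, 514 and 562 FPKM in U937-AE and 488, 409 and 405 FPKM in U937-EG. RPL4, which lines the exit tunnel (ENSG00000174444, chromosome 15, 66498015 to 66504855), had 449.6, 420.2 and 484 FPKM in U937-CTR, 484, 471 and 573 FPKM in U937-AE and 481, 423 and 461 FPKM in U937-EG. RPL7A (ENSG00000148303, chromosome 9, 133348218 to 133351426) had 562, 552 and 589 FPKM in U937-CTR, 631, 682 and 664 FPKM in U937-AE and 631, 553 and 534 FPKM in U937-EG. Their log2 changes at 48 h in U937-CTR were -0.13 (95% interval -0.15 to -0.11) for RPL3, 0.11 (95% interval 0.09 to 0.13) for RPL4 and 0.07 (95% interval 0.04 to 0.10) for RPL7A. Short members stood at the other end. RPL37A (ENSG00000197756, chromosome 2, 216498844 to 216504086), a zinc-binding protein, had 47.5, 49.3 and 96.8 FPKM in U937-CTR, 64.5, 104 and 122 FPKM in U937-AE and 83.4, 71.0 and 93.4 FPKM in U937-EG. RPL39, at the exit tunnel (ENSG00000198918, chromosome X, 119786504 to 119791630), had 51.9, 50.5 and 108 FPKM in U937-CTR, 72.3, 108 and 127 FPKM in U937-AE and 100.3, 83.1 and 103 FPKM in U937-EG. RPL37 (ENSG00000145592, chromosome 5, 40825262 to 40835222) had 43.5, 42.3 and 74.2 FPKM in U937-CTR, 51.8, 77.0 and 85.5 FPKM in U937-AE and 56.7, 53.7 and 72.5 FPKM in U937-EG. All 3 were highest in U937-AE at 48 h. In U937-EG, RPL37 and RPL30 followed RPS27 with log2 changes of 0.35 (95% interval 0.31 to 0.40) and 0.25 (95% interval 0.14 to 0.36), and RPL14 had one of -0.28 (95% interval -0.31 to -0.24).

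Over the 70 members of at least 10 FPKM, the change at 48 h went down with coding length in each line, and at 12 h in U937-AE. In U937-CTR at 48 h the median log2 change was 0.83 for the 8 members with up to 300 coding bases, 0.65 for 22 members of up to 450, 0.48 for 17 of up to 600, 0.37 for 20 of up to 900 and 0.11 for the 3 longer ones. Other coding genes of at least 10 FPKM went the same way, with medians of 0.55, 0.37, 0.35, 0.24 and 0.02 in the same classes. In U937-AE at 12 h the medians of the members fell from 0.55 to -0.04 over these classes, and those of other genes from 0.49 to 0.03. At 48 h in that line the members went from 0.72 to 0.13, and the other genes from 0.16 to 0.01. Pearson's r of the log2 change with log2 coding length, a description across genes that share the same pair of libraries, was -0.61 over the 70 members and -0.32 over 4401 other coding genes in U937-CTR at 48 h. It was -0.54 and -0.03 in U937-AE at 48 h, and -0.47 and 0.06 in U937-EG at 48 h. At 12 h it was 0.11 and -0.13 in U937-CTR, -0.60 and -0.31 in U937-AE, and 0.06 and 0.02 in U937-EG. A difference by length also stood between uninduced lines: the median log2 difference of U937-EG from U937-CTR at 0 h was 0.60 in other coding genes of up to 300 bases and -0.08 in those over 900. In the members it was 0.50 and 0.08. Length thus moved with the change of members and of other genes in U937-CTR at 48 h and U937-AE at 12 h, and with that of members but hardly of other genes in U937-AE and U937-EG at 48 h. Its part in the result was not tested.

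**Figure D2:**
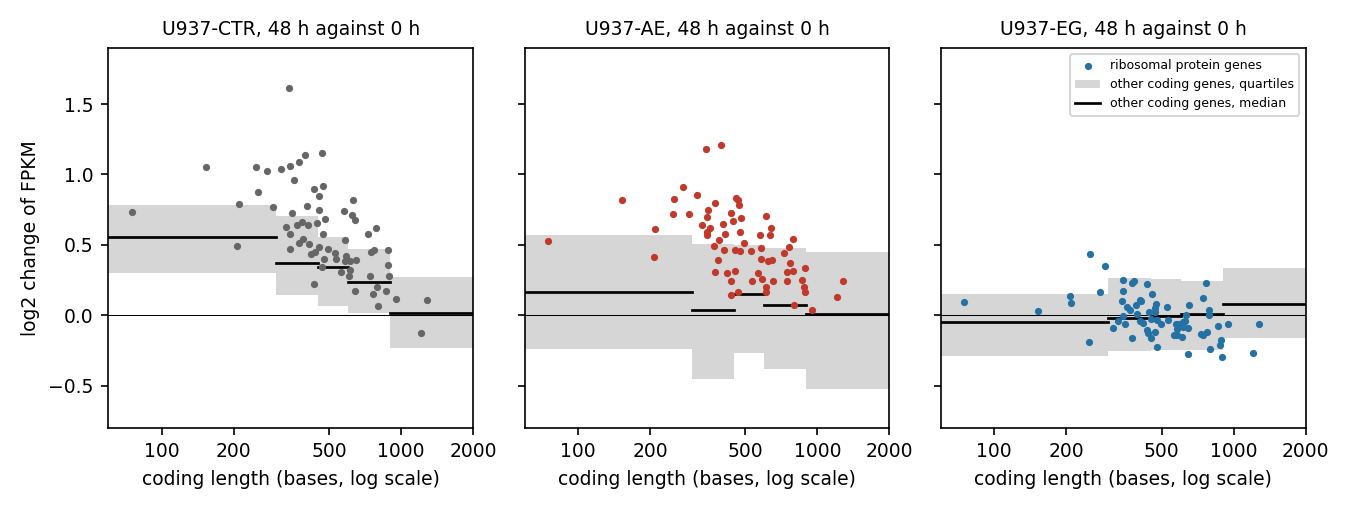
Log2 change of FPKM at 48 h against 0 h (vertical) against coding length in bases (horizontal, log scale) for the 70 ribosomal protein genes of at least 10 FPKM (points), 1 panel per line. Black lines are the medians and grey areas the quartiles of other coding genes in 5 length classes. In U937-CTR both go down with length, from medians of 0.83 and 0.55 in the shortest class to 0.11 and 0.02 in the longest, while in the other 2 lines the medians of other genes change little.

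Members with the TOP start defined above overlapped with the rest. In U937-CTR at 48 h the 38 members with it, among those of at least 10 FPKM, had a median log2 change of 0.65 (quartiles 0.46 to 0.89), and the 19 with another RefSeq start had 0.47 (0.30 to 0.66). In U937-AE at 48 h the medians were 0.56 (0.39 to 0.74) and 0.41 (0.24 to 0.57), and in U937-EG -0.02 (-0.14 to 0.09) and -0.04 (-0.07 to 0.06). At 12 h they were 0.07 (-0.0062 to 0.16) and 0.09 (0.02 to 0.23) in U937-CTR, 0.45 (0.32 to 0.59) and 0.33 (0.25 to 0.42) in U937-AE, and -0.20 (-0.24 to -0.15) and -0.11 (-0.19 to -0.05) in U937-EG. The quartile ranges overlapped in all 6 comparisons, while at 12 h in U937-AE and U937-EG the median of the TOP group lay outside the quartiles of the other.

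The paralogs were far below the members they are named after, apart from 1 pair. Their levels are given as RPKM over the coding length, with the limits of that measure stated above, as means over the 9 libraries. RPL22L1 had 23.4 against 325.7 for RPL22, RPS27L 98.1 against 1502 for RPS27, RPL39L 58.2 against 1243 for RPL39, RPL7L1 365 against 2082 for RPL7 and RPL3L 0.115 against 1819 for RPL3. RPL10L, a testis gene, was listed at 0 in all 9 libraries, where RPL10 had 513. RPL26L1 had 13.2 against 23.3 for RPL26, itself 1 of the 8 uncertain low genes. In FPKM, RPL26L1 (ENSG00000037241, chromosome 5, 172954094 to 172969771) had 1.48, 3.75 and 3.52 FPKM in U937-CTR, 4.82, 7.51 and 7.68 FPKM in U937-AE and 4.52, 5.43 and 5.62 FPKM in U937-EG. It was lowest in U937-CTR at 0 h and higher at both later times in all 3 lines. RPL7L1, which acts in ribosome assembly (ENSG00000146223, chromosome 6, 42879616 to 42889900), had 31.4, 36.7 and 34.8 FPKM in U937-CTR, 30.8, 46.1 and 43.1 FPKM in U937-AE and 28.6, 37.0 and 33.6 FPKM in U937-EG. It rose in U937-EG at 12 h, 0.37 (95% interval 0.31 to 0.43), where RPL7 had -0.17 (95% interval -0.20 to -0.15). RPS27L, a p53 target (ENSG00000185088, chromosome 15, 63148249 to 63157477), had 1.68, 2.11 and 3.05 FPKM in U937-CTR, 2.02, 3.46 and 3.97 FPKM in U937-AE and 2.88, 3.34 and 2.70 FPKM in U937-EG. RPL22L1 (ENSG00000163584, chromosome 3, 170864875 to 170870195) had 3.09, 2.42 and 4.78 FPKM in U937-CTR, 2.97, 5.28 and 5.13 FPKM in U937-AE and 5.00, 5.02 and 3.96 FPKM in U937-EG. RPL39L (ENSG00000163923, chromosome 3, 187120948 to 187139496) had 7.56, 7.29 and 10.1 FPKM in U937-CTR, 5.96, 9.03 and 5.15 FPKM in U937-AE and 10.8, 11.3 and 10.4 FPKM in U937-EG, and was the only member lower at 48 h in U937-AE, with a log2 change of -0.21 (95% interval -0.65 to 0.23).

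The change with time that the 3 lines shared was tested with limma on log2(FPKM + 1), with line as a block and the 3 libraries of each time as replicates over lines. At 12 h no member passed a Benjamini-Hochberg adjusted p of 0.05 in limma, and 3 of 82 had an unadjusted p under 0.05, where 16.5% of all 11820 genes had. Of all genes, 0.144% passed upward and 0.279% downward at 12 h. At 48 h, 6 of 82 members passed, all upward, where 12.7% of all genes passed upward and 4.24% downward. An unadjusted p under 0.05 was reached by 36 members, where 36.6% of all genes reached it, so the members' share was near that of all genes in this test. The median log2 change of the 82 members was 0.38 at 48 h, where that of all genes was 0.14. Of the members 80 of 82 were above 0, and of all genes 7485 of 11820. Called were RPS27, with a log2 change of 0.71 ± 0.18 (SE, limma adjusted p = 0.0413), RPS19 with 0.61 ± 0.17 (limma adjusted p = 0.0493), RPL37 with 0.61 ± 0.16 (limma adjusted p = 0.0485) and RPL26L1 with 0.57 ± 0.15 (limma adjusted p = 0.0468). The other two calls, RPL36A with 0.67 ± 0.12 (limma adjusted p = 0.0191) and RPL17 with 0.69 ± 0.17 (limma adjusted p = 0.0422), are among the 8 uncertain low genes. RPLP1 had the largest change, 0.96 ± 0.31, and RPS12 0.78 ± 0.26, and both missed the threshold with limma adjusted p-values of 0.0742 and 0.0773. Apart from that of RPL36A these calls were close to the threshold. After rescaling by the median ratio limma called 1 member, where 841 of 11788 genes passed upward.

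RPS10 and RPL36A were named after their values were seen, as the only members more than 2-fold higher in U937-EG among those that passed the filter of 1 FPKM. RPL17 went from 0.660 to 1.34 FPKM at 48 h there and missed that filter. RPS10 (ENSG00000124614, chromosome 6, 34417454 to 34426069) had 0.935, 0.775 and 0.988 FPKM in U937-CTR, 0.681, 1.83 and 1.77 FPKM in U937-AE and 0.542, 2.16 and 2.47 FPKM in U937-EG. Its log2 change at 12 h in U937-EG was 1.98 (95% interval 1.32 to 2.73), and that at 48 h in U937-CTR was 0.08 (95% interval -0.64 to 0.80). RPL36A (ENSG00000241343, chromosome X, 101391011 to 101396155) had 1.67, 2.88 and 3.20 FPKM in U937-CTR, 1.57, 3.63 and 2.90 FPKM in U937-AE and 1.83, 3.78 and 3.81 FPKM in U937-EG. Reads of these 2 genes cannot be told apart from those of their readthrough neighbors and pseudogenes where the sequences are shared.

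Genes of the same pathway outside the name rule moved less evenly. FAU, made as a fusion of a ubiquitin-like protein with a ribosomal protein, had 9.81, 11.4 and 17.8 FPKM in U937-CTR, 12.3, 18.9 and 18.5 FPKM in U937-AE and 25.6, 22.4 and 22.2 FPKM in U937-EG. RPL36AL, a paralog of RPL36A, had 89.6, 85.4 and 106 FPKM in U937-CTR, 115, 122 and 95.1 FPKM in U937-AE and 129.8, 131 and 102 FPKM in U937-EG. FAU was higher at 48 h than at 0 h in U937-CTR and U937-AE, while RPL36AL was higher in U937-CTR and lower in the other 2 lines. Of 19 other genes of TOP mRNAs and translation, 18 could be tested, and 10 of them were higher at 48 h in U937-CTR, with a median log2 change of 0.06, 14 in U937-AE with 0.28, and 7 in U937-EG with -0.05. Over all genes 63.2%, 60.9% and 63.8% were higher. In the limma fit at 48 h, 3 of these 18 (TPT1, EIF4A2 and EEF1D) passed upward, where 12.7% of all genes did, and none downward, where 4.24% did. EEF1A1, the elongation factor that brings the aminoacyl-tRNA, had 1702, 1623 and 1827 FPKM in U937-CTR, 1713, 1675 and 2714 FPKM in U937-AE and 1681, 1539.9 and 1868 FPKM in U937-EG. EEF2, which moves the ribosome along the mRNA, had 1036, 945 and 798 FPKM in U937-CTR, 971, 825 and 992 FPKM in U937-AE and 735, 639.6 and 699 FPKM in U937-EG. EEF1G was listed at 0 in all 9 libraries. Whether reads dropped in counting lowered EEF1G, or CD68 among the markers above, was not tested.

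Among 14 regulators of TOP mRNAs and of ribosomal protein genes, 6 passed upward in the limma fit at 48 h, where 12.7% of all genes did, and none downward, where 4.24% did. DDIT4 and SESN2, inhibitors of mTORC1, had 1.77, 8.85 and 18.7 FPKM in U937-CTR, 3.17, 5.30 and 15.9 FPKM in U937-AE and 3.14, 2.75 and 19.97 FPKM in U937-EG, and 14.4, 38.3 and 47.0 FPKM in U937-CTR, 8.88, 16.6 and 50.2 FPKM in U937-AE and 9.35, 16.2 and 48.7 FPKM in U937-EG, in that order, with limma log2 changes of 2.40 ± 0.35 (SE, adjusted p = 0.0114) and 2.09 ± 0.24 (adjusted p = 0.00759). EIF4EBP1, the translational repressor that mTORC1 phosphorylates, passed with 0.69 ± 0.15 (limma adjusted p = 0.0301), and the other 3 were TIA1, TIAL1 and RPS6KB2. MYC, an activator of ribosome production, had 40.0, 27.1 and 21.1 FPKM in U937-CTR, 35.1, 49.9 and 13.8 FPKM in U937-AE and 27.8, 27.5 and 18.1 FPKM in U937-EG. It was lower at 48 h in all 3 lines, with a limma adjusted p of 0.0572. Of 39 ribosome assembly genes tested, 38 were higher at 12 h in U937-AE, with a median log2 change of 0.48, where 66.8% of all genes were higher, and 37 in U937-EG, with 0.33, where 67.4% were. In U937-CTR 20 were higher, with a median of less than 0.01 in size, where 68.0% of all genes were. At 48 h their medians were -0.21 in U937-AE, -0.02 in U937-EG and again less than 0.01 in size in U937-CTR, and the limma fit called 1 upward (RRN3) and 3 downward (FBL, NCL and NOLC1). The ribosome assembly genes and the members thus had medians on opposite sides of 0 in U937-EG at 12 h, 0.33 and -0.16. The 71 or 72 mitochondrial ribosomal protein genes that passed the filter had medians of 0.04 at 12 h and 0.23 at 48 h in U937-CTR, 0.33 and 0.02 in U937-AE, and 0.10 and -0.19 in U937-EG.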

How the data were processed

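The authors sequenced RNA of 9 libraries, 1 for each line and time. HISAT2 (2.0.5) placed the reads on hg38, and SAMtools (1.7) and HTSeq (0.9.1) followed, with default settings for alignment and counting. The deposited values are FPKM of 60623 genes. The submitters' processing notes also name DESeq2 (1.22.2), whose output was not used here. HTSeq by default drops reads that align to several places or lie on several genes, which lowers genes with pseudogenes or readthrough neighbors. The deposited FPKM divide by all annotated exon bases, which understates members with long optional exons.

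The line and the time of a library come from its title. Members were matched by gene name, and the members and gene lists were chosen with earlier results of these data known. The named members are those listed by role, the paralogs with the genes they are named after, the 3 most abundant, the 3 largest rises and falls at 48 h in each line, and the 3 largest and smallest changes in limma, each among members of at least 10 FPKM. Any other member is named in the text as chosen after its values were seen.

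Changes are log2 of FPKM plus 0.01, over genes with a mean of at least 1 FPKM in the 2 libraries compared. This scale understates the change of low genes. All 84 members were kept in shares. A few genes are not reported here. Library totals and reads were recovered from the FPKM steps, since every value of a gene is a multiple of the FPKM that a single read adds. Reads came out whole, within 0.02 reads at low counts and at most 0.3 at high ones, for 23881 of 23889 genes (99.967%) and for 83 of 84 members, RPL10L being at 0. Since FPKM steps depend on gene length, no count test was run. Totals on genes were 15136398 to 18443639 reads. The 95% intervals of a member's change were taken from its recovered reads by the exact Clopper-Pearson method and cover counting error only, since PCR copies of a molecule could not be told from other reads.

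The change shared by the lines was fitted on log2(FPKM + 1) with limma (3.58.1, R 4.3.3), with terms for line and time and 4 residual degrees of freedom, over genes with a mean of at least 1 FPKM, with Benjamini-Hochberg adjustment over all genes. It was tested on simulated data. Nothing in the labels says whether the 3 lines were cultured or sequenced together. The limma p-values measure the spread between lines in their change with time. As the lines carry different constructs, that spread can hold effects of the fusions as well as noise. Shares were compared with an exact permutation test within lines. Other steps used Python 3.11.15, numpy 2.4.6, pandas 2.3.3, scipy 1.17.1 and matplotlib 3.10.9. Coding lengths and shared exon bases come from GENCODE on GRCh37, from which no coordinates were taken, and positions and start sequences come from RefSeq for GRCh38.p14. Alternatives covered the pseudocount, the filter, the scaling, the reference library, the members counted, the fold threshold and the block.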

Additional observations from a re-analysis of the deposited data

Results flagged for a closer look

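U937-AE and U937-EG differed in the direction of the median member. At 12 h the median log2 change was 0.42 in U937-AE and -0.16 in U937-EG, and at 48 h it was 0.52 and -0.030. In U937-CTR it was 0.08 and 0.62. With the change of U937-CTR subtracted, U937-AE at 48 h had -0.093, and set against U937-CTR at 12 h, U937-EG had 0.23. With 1 library per condition this difference was not tested. Among the 81 members that passed the filter in both lines and at both times, 37 (45.7%) were higher than at 0 h in U937-AE and lower in U937-EG at both times, where 5.80% of 10705 genes were. U937-EG started from the highest of the 3 shares at 0 h, 7.19% against 6.59% in U937-AE, and the part of this starting level in the difference was not tested.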

How the results depend on the processing

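Of the 44 alternative values of the median change, 29 moved by no more than the spread allowed, and of the 24 alternative values of the share 3 did; the cause of the other shifts was not tested. Rescaling by the median ratio turned the median log2 change of U937-CTR at 12 h to -0.055 and gave 0.28 and 0.37 in U937-AE at 12 and 48 h and -0.26 and -0.16 in U937-EG. Rescaling to the total outside the mitochondrial genome gave 0.025 in U937-CTR and 0.32 in U937-AE at 12 h. With the change of U937-CTR subtracted, the median was 0.32 and -0.093 in U937-AE at 12 and 48 h, a reversal at 48 h, and -0.22 and -0.57 in U937-EG. Against U937-CTR at the same time it was 0.54 and 0.15 in U937-AE, and 0.23, a reversal, and -0.12 in U937-EG.

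The log2 change of the share at 12 and 48 h was 0.15 and 0.57 in U937-CTR, 0.38 and 0.63 in U937-AE and -0.08 and 0.17 in U937-EG. Outside the mitochondrial genome it was 0.024 and 0.43, 0.25 and 0.42, and -0.19 and -0.020 in the same order. As a share of recovered reads it was 0.074 and 0.49, 0.32 and 0.43, and -0.17 and -0.037, so in U937-EG at 48 h both reversed it. Without RPS18 it was 0.55, 0.61 and 0.16 at 48 h, and 0.37 in U937-AE at 12 h. With pseudogenes added it was 0.15 and 0.54 in U937-CTR, 0.37 and 0.61 in U937-AE, and 0.16 at 48 h in U937-EG.

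At 2-fold, 1 and 11 members were higher in U937-CTR at 12 and 48 h, 3 and 4 in U937-AE and 2 and 2 in U937-EG. Of all genes 5.64% and 8.00%, 6.57% and 17.3%, and 3.03% and 10.8% were, in the same order. At 1.5-fold there were 3 and 41 in U937-CTR and 23 and 34 in U937-AE. Of all genes 14.4% and 20.4%, and 18.0% and 31.7% were. With a limit of 25% there were 7 and 67, 56 and 57, and 5 and 7. Of all genes 29.9% and 36.5%, 36.2% and 44.6%, and 22.3% and 37.0% passed it. Rescaling by the median ratio left 5 members more than 2-fold higher in U937-CTR at 48 h and 1 at each time in U937-EG. All genes were not counted after rescaling, so no excess of members can be stated there.

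Where limma called 6 of 82 members at 48 h, it called 1 of 82 after rescaling and 1 of 82 with no term for line. It called 3 of 70 with a mean of at least 10 FPKM, and 0 of 83 with no filter, with 26 members then at an unadjusted p under 0.05. Of all genes, 1498 of 11820 passed upward in the main fit, 841 of 11788 after rescaling and 606 of 11820 with no term for line. With a mean of at least 10 FPKM 554 of 4706 did. With no filter 429 of 30033 did, and 6058 had an unadjusted p under 0.05. A pseudocount of 0.01 FPKM gave 4 calls among members and 1475 upward among all genes. Leaving out 1 line in turn leaves 2 residual degrees of freedom, with which limma called 0 to 2 members, and only 6 of all genes upward without U937-CTR and 0 without U937-EG, so these counts say nothing of the members. Their median log2 change was then 0.26 without U937-CTR, 0.30 without U937-AE and 0.53 without U937-EG, against 0.38. No paired analysis was possible because no line and time had a second library to number, beyond the pairing of times within lines that the fit and the permutation test already use. With 1 library per condition, changes within a line cannot be told apart from differences between cultures or libraries, and each line is 1 clone.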
